A study of Mus musculus with 115 samples.

Results

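The major urinary proteins Mup1 to Mup5 were followed by their array probes across liver and inguinal fat of gonadectomised mice that had been given testosterone, estradiol or no hormone. The members were all probes whose gene symbol in the array annotation was Mup1, Mup2, Mup3, Mup4 or Mup5. The 5 genes, of 18120 gene symbols in the annotation, had 9 such probes among 25697: 1 for Mup1, 2 for Mup2, 1 for Mup3, 2 for Mup4 and 3 for Mup5. In each tissue 7 of the 9 passed the filter on low signal and were tested, and each of the 5 genes kept at least 1 probe. The Mup4 probe ILMN_2728666 and the Mup5 probe ILMN_1226884 were detected in 0 of 60 liver arrays, and in fat in 1 and 0 of 55 arrays.

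The mice were of the core genotypes model, called FCG in the labels, kept on C57BL/6J. Sry, the gene that starts testis formation, has been removed from their Y chromosome and placed as a transgene on an autosome, so gonad type and sex chromosomes vary separately. XX and XY- mice had ovaries, and XXSry and XY-Sry mice had testes. Every animal, controls included, lost its gonads at 75 days of age and received a capsule that was blank, held 5 mM testosterone or held 50 µg of estradiol, and tissue was taken 3 weeks later. One-colour Illumina BeadChip arrays measured 12 genotype by treatment groups in each tissue, with 5 liver arrays a group (60 in all) and 3 to 5 fat arrays a group (55 in all). In the text B, T and E stand for blank, testosterone and estradiol. Levels are normalised log2 signal, a difference of 1 is a doubling, and a difference counts as called at a limma adjusted p under 0.05. Replicate numbers only name arrays. The labels do not say in so many words that each array is a separate mouse, so p-values measure the spread between arrays.

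Major urinary proteins are small secreted proteins of the lipocalin family that bind volatile pheromones. Mouse liver makes them in very large amounts, and they pass through the blood and the kidney into urine, where they carry scent signals. Their genes lie as a cluster of close copies, and androgens and the pulsed release of growth hormone are known to raise their RNA in male liver. Because fat and liver are mixtures of cells, fewer cells of a type and less RNA per cell cannot be told apart here.

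The RefSeq gene table for assembly GRCm38.p6 lists 22 numbered Mup genes, all 22 protein coding and all 22 on chromosome 4, besides 24 named Mup pseudogenes. All 5 member symbols are current there, but 7 numbered genes carry one of the names Mup1 to Mup5 as an older name, so the symbols of the array design may point to other copies in later usage. The array annotation gives the Mup3 probe a symbol and no transcript description. Probe sequences were not used here, so which copies each probe can bind was not tested.

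Promoter stretches of the members are shown because the probes moved together with testosterone. The RefSeq promoter table holds Mup2, Mup3 and Mup4 but has no entry for Mup1 or Mup5. Each line gives the 200 bases before the transcript start, 5′ to 3′ on the gene's own strand, GRCm38.p6, minus strand: chr4:60139857-60140056 for Mup2, chr4:62087318-62087517 for Mup3 and chr4:59960668-59960867 for Mup4. The Mup2 start used by the table lies inside the gene as the RefSeq gene table bounds it. Capitals mark TATAA, the core of a TATA box, and AGGTCA, a nuclear receptor motif.
Mup2: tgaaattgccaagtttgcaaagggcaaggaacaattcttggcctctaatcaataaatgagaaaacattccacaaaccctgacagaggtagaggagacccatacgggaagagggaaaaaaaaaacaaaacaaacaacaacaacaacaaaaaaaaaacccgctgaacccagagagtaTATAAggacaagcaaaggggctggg
Mup3: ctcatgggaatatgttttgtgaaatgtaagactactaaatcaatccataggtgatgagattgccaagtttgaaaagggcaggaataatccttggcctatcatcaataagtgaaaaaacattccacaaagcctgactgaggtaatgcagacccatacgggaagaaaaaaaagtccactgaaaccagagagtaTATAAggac
Mup4: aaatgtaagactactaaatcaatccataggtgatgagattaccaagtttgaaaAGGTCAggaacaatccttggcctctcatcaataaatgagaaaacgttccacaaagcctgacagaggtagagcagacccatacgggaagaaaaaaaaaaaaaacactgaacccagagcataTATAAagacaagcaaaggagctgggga

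The TATAA letters end 21 bases before the start in Mup2, 5 in Mup3 and 23 in Mup4. The motifs searched on both strands were the TATA core TATAA, the nuclear receptor motif AGGTCA, the STAT5 motif TTCNNNGAA, the steroid receptor motif TGTTCT and the palindromic estrogen response element. AGGTCA occurs in Mup4 alone of these 3, at 147 to 142 bases before the start, and the last 3 of these motifs have no match in these windows. Over 32851 promoters of the same length, TATAA was present in 18.5%, AGGTCA in 11.4%, TTCNNNGAA in 5.49%, TGTTCT in 12.9% and the estrogen response element in 0.0365%. The longest run shared by Mup2, Mup3 and Mup4 is agacccatacgggaaga, of 17 bases. It begins 107, 54 and 75 bases before the 3 starts and is found in 10 of the 14 Mup promoters of the table, and in 10 promoters in all. Aligned without counting end gaps, Mup3 and Mup4 were identical at 89.0% of positions, Mup2 and Mup4 at 76.0%, and Mup2 and Mup3 at 70.1%.

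Before the results, 2 liver arrays went against their labels, and others stood apart less far. In the array labelled XY-Sry T replicate 5, Xist was 6.57, inside the range of the XX and XXSry arrays (6.30 to 7.33), and the Y-linked genes Ddx3y and Eif2s3y were nearer to those arrays too. In the array labelled XY- E replicate 5, deviations from the probe means over all tested probes but the Mup probes correlated at 0.51 with the other arrays' testosterone mean and at -0.40 with their estradiol mean. By that measure all 20 testosterone livers were most like testosterone, 18 of 20 blank livers like blank (2 like estradiol) and 15 of 20 estradiol livers like estradiol (3 like blank, 2 like testosterone). The other of these last 2 was XXSry E replicate 5, whose correlation was 0.05 with testosterone and -0.05 with estradiol. Its Mup4 level, 12.81, was the highest of its group. Slide here means the number that opens the array title, read as the BeadChip, which the titles do not state. XXSry E replicate 5 and XY- E replicate 5 shared a slide, which held 4 estradiol livers and no liver of another treatment. On that slide, slide and treatment cannot be told apart. Results that rest on the first 2 arrays are given with and without them, and those that turn on XXSry E replicate 5 likewise, an alternative chosen after its values were seen. In fat, 1 array (XX E replicate 1) has conflicting labels and was kept as estradiol. For fat XX B replicate 1, Ddx3y was nearer to the XY- and XY-Sry arrays than to its own class, while Xist and Eif2s3y were not. It was kept under its label. Across liver arrays 31.8% to 41.0% of probes were detected, and no pair of arrays held identical values. All 6 hepatocyte marker genes were tested in liver, and 0 of 6 were called for either hormone. Of all probes 19.1% were called with testosterone and 6.8% with estradiol. The summed signal of the 6 ran from 46407 to 93928 in blank, 42524 to 89236 in testosterone and 50779 to 85332 in estradiol livers.

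The first comparison asks what testosterone does to the Mup genes in liver. All 7 tested probes rose, with differences from 0.23 to 2.10 and a median of 0.92, against a median of 0.003 over all 11317 probes tested, of which 8.17% rose. Mup4 and Mup5 rose by 3.54- to 4.30-fold, Mup1 and the Mup2 probe ILMN_3143404 rose by 1.49- and 1.89-fold, and Mup3 and the Mup2 probe ILMN_3065459 rose by 1.21- and 1.17-fold. Mup1, Mup2 and Mup3 signals lay nearest to the highest signal of their arrays, so these folds give no order between genes. The 7 were also called over estradiol livers, by 0.27 to 2.11, where 7.83% of all probes were higher.

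**Figure D1:**
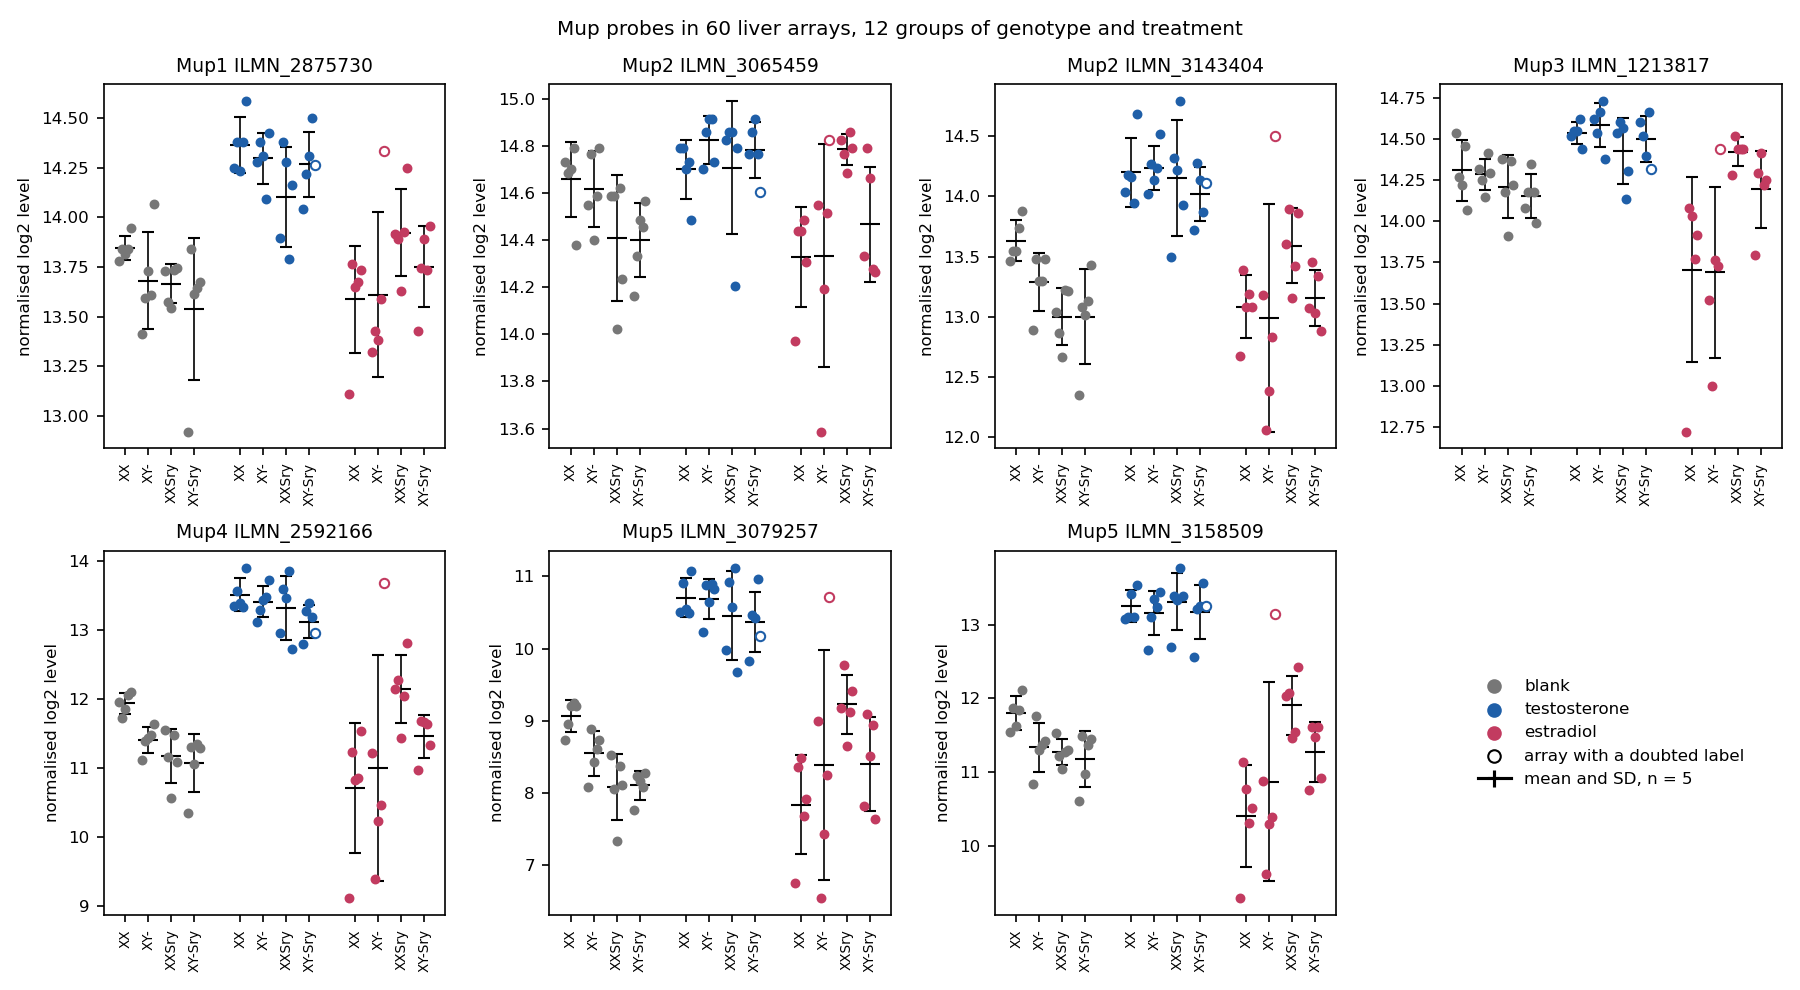
Normalised log2 level of the 7 tested Mup probes in each of the 60 liver arrays, by treatment and genotype (5 arrays a group, bars are the mean and SD, open symbols are the 2 arrays that go against their labels). For Mup4 and Mup5 all 20 testosterone arrays lie above all 20 blank arrays, and the estradiol arrays are the most spread.

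Mup4 encodes a urinary protein that is also made outside the liver, in nasal and gland tissue. For its probe ILMN_2592166 the 5 blank XX livers held 11.96, 11.72, 11.86, 12.06 and 12.10, and the 5 testosterone XX livers 13.35, 13.57, 13.40, 13.34 and 13.91. Blank XY- livers held 11.12, 11.39, 11.44, 11.47 and 11.64 against 13.12, 13.29, 13.44, 13.48 and 13.73 with testosterone. Blank XXSry livers held 11.55, 11.15, 10.57, 11.48 and 11.09 against 12.96, 13.60, 13.47, 13.85 and 12.73, and blank XY-Sry livers 10.35, 11.30, 11.06, 11.35 and 11.30 against 12.80, 13.28, 13.39, 13.20 and 12.95. Every testosterone array was above every blank array, in each genotype and over all 40. The Mup4 mean was 11.40 ± 0.45 (SD, n = 20) in blank and 13.34 ± 0.32 (SD, n = 20) in testosterone livers, a difference of 1.94 ± 0.19 (SE, limma adjusted p = 3.15e-12) and the 18th largest rise on the array.

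Mup5 behaved in the same way with both tested probes. Probe ILMN_3158509 ran from 10.61 to 12.12 with a median of 11.39 over the 20 blank arrays, and from 12.56 to 13.77 with a median of 13.25 over the 20 testosterone arrays. Its difference was 1.82 ± 0.16 (SE, limma adjusted p = 1.29e-13). For Mup5 probe ILMN_3079257 the blank arrays ran from 7.34 to 9.25 (median 8.40) and the testosterone arrays from 9.67 to 11.12 (median 10.56), a difference of 2.10 ± 0.19 (SE, limma adjusted p = 2.05e-13), the 17th largest rise. Neither probe's groups overlapped.

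Mup1 and Mup2 have RNAs that are among the most abundant of the liver. Mup1 went from 13.68 ± 0.23 (SD, n = 20) to 14.26 ± 0.19, a difference of 0.57 ± 0.079 (SE, limma adjusted p = 1.03e-07), and 17 of 20 testosterone arrays were above all blank arrays. The Mup2 probe ILMN_3143404 went from 13.23 ± 0.37 to 14.15 ± 0.30 (SD, n = 20 each), a difference of 0.92 ± 0.12 (SE, limma adjusted p = 3.08e-08), again with 17 of 20 arrays above all blanks. The other Mup2 probe, ILMN_3065459, went from 14.52 ± 0.21 to 14.75 ± 0.17, a difference of 0.23 ± 0.076 (SE, limma adjusted p = 0.0235), with 8 of 20 arrays above all blanks. The call of that last probe was lost when arrays were centred on the median in place of quantile normalisation (0.28, limma adjusted p = 0.0634).

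Mup3, a further gene of the cluster, held 13.91 to 14.53 (median 14.23) in blank livers and 14.14 to 14.73 (median 14.54) in testosterone livers. The groups overlapped, with 10 of 20 testosterone arrays above all blanks, and the difference was 0.27 ± 0.086 (SE, limma adjusted p = 0.0182).

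The rise was present in each genotype taken alone for Mup4 and Mup5. In XX livers 3 of 7 probes rose, where 0.928% of all probes did: Mup4 by 1.57 (limma adjusted p = 0.00886) and the Mup5 probes by 1.64 and 1.45. XY- livers had 5 of 7 called, against 0.769% of all probes, and XXSry livers 4 of 7, against 1.67%. XY-Sry livers had 5 of 7 called, against 0.831%. Without regard to the test, the 5 testosterone arrays lay wholly above the 5 blank arrays for Mup1, Mup2 ILMN_3143404, Mup4 and both Mup5 probes in every genotype, 5 of 7, and in XY-Sry for Mup2 ILMN_3065459 as well, 6 of 7. Such separation was not counted over all probes, so these counts only describe the members. The difference between genotypes in the testosterone effect was itself tested: 0 of 7 probes were called for testes against ovaries (differences of 0.01 to 0.43, 0 of 7 with an unadjusted p under 0.05, 0.133% of all probes called) and 0 of 7 for XX against XY chromosomes (-0.20 to -0.10, 0 of 7 unadjusted, 0% called). The 95% intervals still allow differences between -0.43 and 1.18 for testes against ovaries.

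Leaving out any 1 of the 60 liver arrays, or both arrays that go against their labels, kept all 7 calls for testosterone. On each of the 3 slides that held both blank and testosterone arrays, all 7 differences were positive, for Mup4 1.61, 1.95 and 2.06.

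The measured rise was smaller for the brighter member probes, so each signal was set against the highest of its array. The highest probe signal of a liver array was between 25084 and 37472, with a median of 31659, and the tables carry no flag for saturation. Ceiling here means that highest signal of an array, since the saturation point of the scanner was not measured. A probe was counted as near the ceiling of an array at 80% or more of that array's highest signal. The Mup2 probe ILMN_3065459 was near the ceiling in 20 of 20 testosterone, 10 of 20 blank and 8 of 20 estradiol arrays and was the brightest probe of at least 1 array. Its median was 78.7% of the highest signal in blank and 93.9% in testosterone livers. Its measured rise of 1.17-fold was thus taken next to the ceiling.

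Mup3 was near the ceiling in 7 of 20 testosterone, 2 of 20 blank and 1 of 20 estradiol arrays, with a median of 64.1% in blank and 78.4% in testosterone livers. Mup1 came near it in 1 array and Mup2 ILMN_3143404 in 3 arrays, all with testosterone. Mup4 and Mup5 never did: their highest values were 72.3% for Mup4 and 69.3% and 14.3% for Mup5 ILMN_3158509 and ILMN_3079257. Over the 7 probes, the brighter the probe in blank livers, the smaller its testosterone difference, without exception (Spearman rho -1, n = 7 probes that share their arrays and may share targets, a description with no test). The part of the ceiling in the smaller measured rises of Mup1, Mup2 and Mup3 was not tested, and no test was made of one gene's rise against another's.

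**Figure D2:**
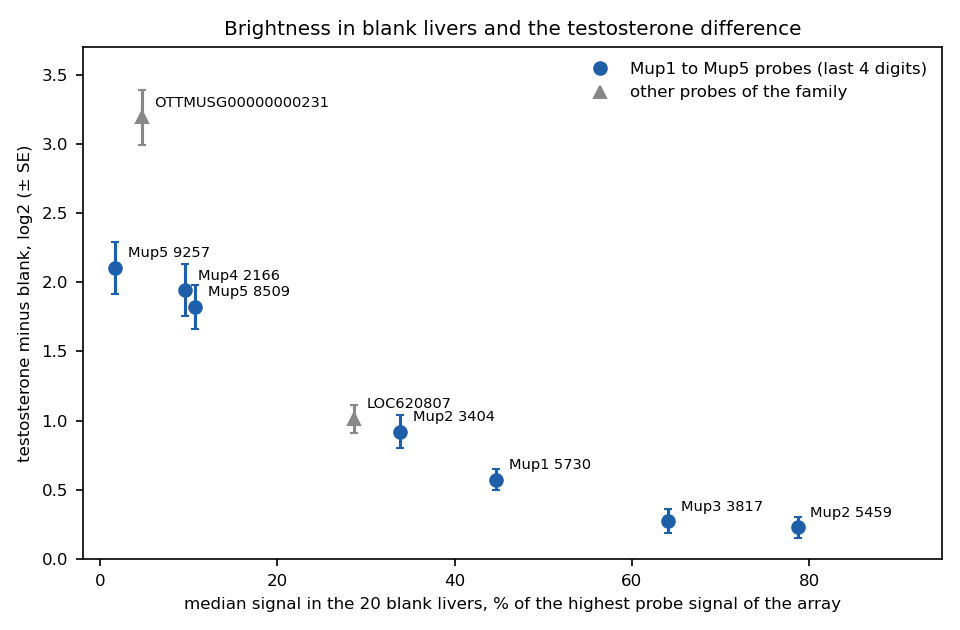
Testosterone minus blank difference in liver (log2, bars are SE) against the median signal of the probe in the 20 blank livers as a percent of the highest probe signal of the array, for the 7 tested Mup probes and 2 other probes of the family. The difference falls from 2.10 for Mup5 ILMN_3079257 at 1.67% to 0.23 for Mup2 ILMN_3065459 at 78.7%. OTTMUSG00000000231, one of the 2 other probes, breaks the order with 3.19 at 4.67% (Spearman rho -0.98 over the 9 probes).

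Beyond the members, 2 probes carry the family's name in their annotation. LOC620807, matched to RefSeq Mup6 by gene number, rose by 1.01 ± 0.10 (SE, limma adjusted p = 7.67e-12). OTTMUSG00000000231, matched to RefSeq Mup21 through an older name, rose by 3.19 ± 0.20 (SE, limma adjusted p = 1.19e-19), 9.13-fold and the 5th largest rise of the array. The latter is the family probe with the largest testosterone difference, and it is named because of that value. Its promoter, unlike those of Mup2, Mup3 and Mup4, holds TGTTCT at 198 to 193 bases before the start. That motif is present in 12.9% of all promoters, and its part in the rise was not tested.

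The second comparison asks what estradiol does in liver. Averaged over the 4 genotypes, 0 of 7 probes were called against blank (differences of -0.28 to 0.03, median -0.04, limma adjusted p from 0.0849, 1 of 7 with an unadjusted p under 0.05), while 6.8% of all probes were. Without the 2 arrays that go against their labels 2 were called, Mup3 at -0.28 (limma adjusted p = 0.0190) and Mup5 ILMN_3158509 at -0.42 (limma adjusted p = 0.0214). With slide as a block Mup3 alone was called, at -0.38 (limma adjusted p = 0.00375) with a fixed and -0.31 (limma adjusted p = 0.0129) with a random block. Over all probes 769 were called in the main fit. There were 861 without the 2 arrays, 1054 with the fixed and 948 with the random block. The 95% intervals of the 7 differences ran from -0.60 to 0.39. Spread was wider in estradiol livers: for Mup4 the SD over 20 arrays was 1.06 with estradiol, 0.45 in blank and 0.32 with testosterone, and it was 0.93 over the 19 estradiol arrays without XY- E replicate 5. The estimates differed in sign between genotypes. All 7 were negative in XX and in XY- mice, whose gonads had been ovaries. All 7 were positive in XXSry and in XY-Sry mice, whose gonads had been testes. By limma, 6 of 7 had an unadjusted p under 0.05 in XX, 1 in XY-, 4 in XXSry and 0 in XY-Sry livers. The 7 probes share their arrays and were correlated in estradiol livers (r from 0.65 to 0.96), so their common sign does not count as 7 separate results.

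**Figure D3:**
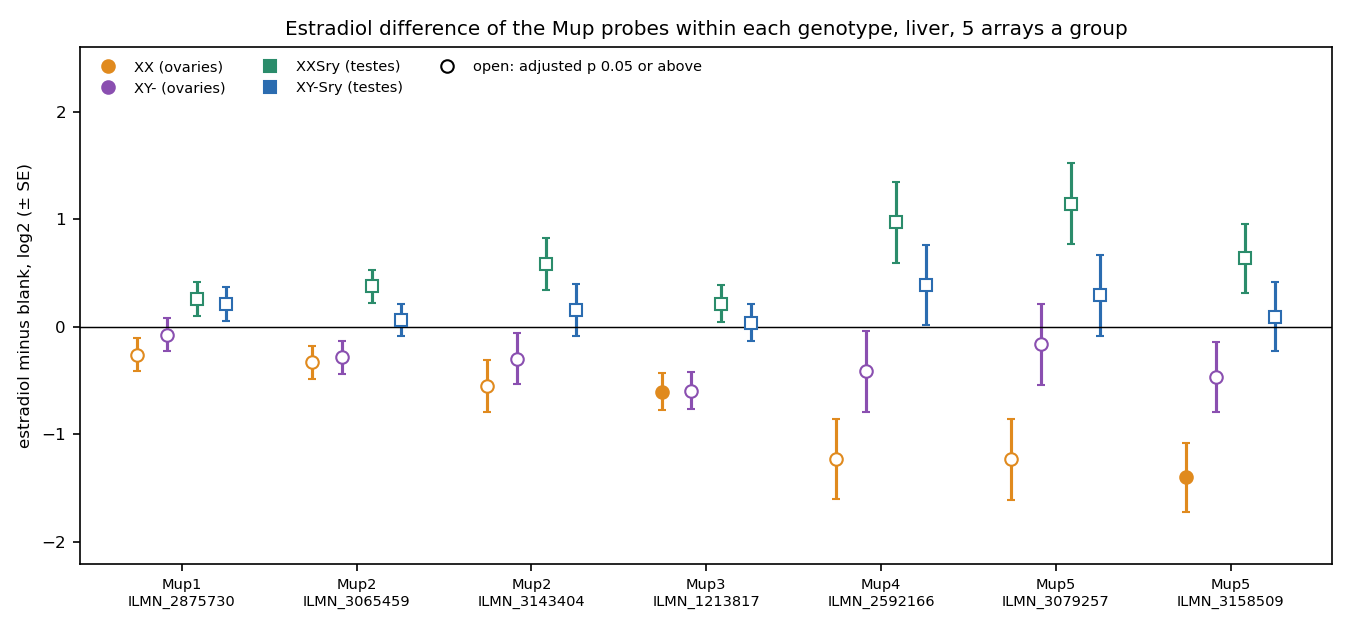
Estradiol minus blank difference in liver (log2, bars are SE) of the 7 tested Mup probes within each genotype, with 5 arrays a group and filled symbols for limma adjusted p under 0.05. Circles (XX and XY-, ovaries) lie below 0 and squares (XXSry and XY-Sry, testes) above it for all 7 probes.

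Mup4 shows the pattern by array. With estradiol the 5 XX livers held 9.11, 11.23, 10.83, 10.86 and 11.53, all below the 5 blank XX livers, whose lowest was 11.72. The 5 XY- livers held 11.22, 9.39, 10.23, 10.47 and 13.69, the last being the array that goes against its label, and they overlapped the blank XY- livers. The XXSry livers held 12.14, 12.28, 11.44, 12.05 and 12.81 with estradiol, against blanks of 10.57 to 11.55, and the XY-Sry livers 10.97, 11.68, 11.67, 11.64 and 11.33 against 10.35 to 11.35. The mean difference was -1.23 ± 0.38 (SE) in XX, -0.41 in XY-, 0.97 in XXSry and 0.39 in XY-Sry livers, and none of these 4 passed the threshold (limma adjusted p = 0.0612, 0.881, 0.562 and 0.883). Without the 2 arrays that go against their labels the Mup4 difference was -1.09 in XY- (limma adjusted p = 0.144) and -1.23 in XX livers, where it was then called (limma adjusted p = 0.00603). Without XXSry E replicate 5 it was 0.80 in XXSry livers (limma adjusted p = 0.853).

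In XX livers 2 of 7 probes fell with estradiol, where 0.91% of all probes fell. Mup5 ILMN_3158509 fell by 1.40 ± 0.32 (SE, limma adjusted p = 0.00715) and Mup3 fell by 0.60 ± 0.17 (SE, limma adjusted p = 0.0381). For that Mup5 probe the estradiol XX livers held 9.29, 11.13, 10.78, 10.31 and 10.51 and the blank XX livers 11.55, 11.87, 11.63, 11.85 and 12.12, with no overlap. For Mup3 the estradiol XX livers held 12.72, 14.08, 14.03, 13.77 and 13.92, and the lowest of these stood apart. Without that XX E replicate 1, chosen to be left out after its values were seen, neither was called: Mup5 was at -1.12 (limma adjusted p = 0.0756) and Mup3 at -0.36 (limma adjusted p = 0.370). With slide as a fixed block 4 probes were called in XX livers, Mup3 at -0.75, Mup4 at -1.53 and Mup5 at -1.61 and -1.54. Without the 2 arrays that go against their labels 4 were likewise called in XX livers, Mup3, Mup4 and both Mup5 probes, and Mup3 was called in XY- livers at -0.78 (limma adjusted p = 0.0214). The shares of all probes called under these alternatives are not given here. With all arrays, in the other genotypes 0 of 7 probes were called against blank: XY- with 1 of 7 at an unadjusted p under 0.05 (0.0265% of all probes called), XXSry with 4 of 7 (0.309%) and XY-Sry with 0 of 7 (0.504%).

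Whether the estradiol effect differs by gonad was tested as an interaction. The effect was more positive in mice with testes for all 7 probes, by 0.40 to 1.50, median 0.79, against a median of 0.01 over all probes. None of the 7 passed the threshold (limma adjusted p from 0.0659 to 0.676), all 7 had an unadjusted p under 0.05, and 0.0795% of all probes were called. The closest were Mup3 (0.72 ± 0.17 SE, adjusted p = 0.0659), Mup4 (1.50 ± 0.38 SE, adjusted p = 0.0795) and Mup5 ILMN_3158509 (1.30 ± 0.32 SE, adjusted p = 0.0795), all by limma. This outcome turned on a few arrays and settings. Without the 2 arrays that go against their labels 5 of 7 probes were called, Mup4 at 1.84 (limma adjusted p = 7.71e-05), Mup5 ILMN_3158509 at 1.58 (7.71e-05) and ILMN_3079257 at 1.71, Mup3 at 0.82 and Mup2 ILMN_3143404 at 0.98. Leaving out XY- E replicate 5 alone also gave 5, and leaving out XXSry E replicate 5 gave 0, with Mup4 at 1.42 (limma adjusted p = 0.136). With slide as a block, fixed or random, 3 were called. Over all probes 9 were called in the main fit. There were 36 without the 2 arrays that go against their labels, 36 with the fixed and 46 with the random block. On both slides that held blank and estradiol arrays, with 2 arrays a cell, all 7 interaction differences were positive, from 0.68 to 2.12 on the first and from 0.29 to 1.52 on the second.

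Within estradiol livers, testes and ovaries could be compared directly. Here 3 of 7 probes were higher in mice with testes, where 0.451% of all probes were: Mup3 by 0.61 ± 0.12 (SE, limma adjusted p = 8.55e-04), Mup5 ILMN_3158509 by 0.95 ± 0.23 (adjusted p = 0.00758) and Mup4 by 0.94 ± 0.27 (adjusted p = 0.0351). Without the 2 arrays that go against their labels 6 of 7 were higher, all but Mup1, and the share of all probes in that setting is not given here. Without XX E replicate 1 Mup4 was not called (0.74, limma adjusted p = 0.159). Without XXSry E replicate 5 Mup4 was not called either (0.86, limma adjusted p = 0.0914), while Mup3 (0.61) and that Mup5 probe (0.89) were. Mup3 held 12.72, 14.08, 14.03, 13.77 and 13.92 in XX and 13.52, 13.001, 13.76, 13.73 and 14.44 in XY- estradiol livers, against 14.28, 14.52, 14.44, 14.44 and 14.44 in XXSry and 13.80, 14.29, 14.41, 14.22 and 14.25 in XY-Sry livers. The groups overlapped, with the lowest values in XX and XY- livers and the doubted array, at 14.44, the highest of the XY- livers. Within blank livers the 7 differences had the opposite sign (-0.71 to -0.11) and 0 of 7 were called (4 of 7 with an unadjusted p under 0.05, 1.78% of all probes called), and within testosterone livers 0 of 7 were called (0 of 7 unadjusted, 0.212% called).

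Markers of liver macrophages moved with the hormones too. All 4 markers (Clec4f, Adgre1, Cd68 and Csf1r) rose with estradiol, by 0.42 to 0.78, where 3.54% of all probes rose. With testosterone 2 of 4, Clec4f and Csf1r, fell by 0.64 and 0.37, where 10.9% of all probes fell. Their summed signal ran from 1077 to 3364 in blank, 880 to 2106 in testosterone and 1389 to 4235 in estradiol livers. Markers of liver endothelium, bile duct and stellate cells were listed as well, and their calls are not given here. In blank, testosterone and estradiol livers the median summed signal was 786, 717 and 772 for endothelium. It was 264, 263 and 264 for bile duct and 550, 500 and 533 for stellate cells. The part of any of these lists in the Mup results was not tested.

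Averaged over treatments, neither gonad nor sex chromosomes moved the Mup probes past the threshold. For testes against ovaries 0 of 7 were called (-0.10 to 0.22, 0 of 7 with an unadjusted p under 0.05), where 3.39% of all probes were, and the 95% intervals ran from -0.41 to 0.48. OTTMUSG00000000231, the Mup21 probe, was by contrast higher in mice with testes by 0.72 (limma adjusted p = 0.00245). For XX against XY chromosomes 0 of 7 were called (0.03 to 0.22, 0 of 7 unadjusted), where 0.186% of all probes were, with intervals from -0.16 to 0.53. The sex chromosome terms for estradiol (-0.19 to 0.13) and for gonad (-0.03 to 0.30) gave 0 of 7 calls each, with 0 of 7 unadjusted and 0% of all probes called. Within blank, testosterone and estradiol livers taken alone, XX against XY chromosomes also gave 0 of 7 calls each (0 of 7 unadjusted each), where 0.0884%, 0.0619% and 0.0795% of all probes were called.

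The order of the 12 group means was alike for most probes. For all 7 but Mup2 ILMN_3065459 the 4 testosterone groups took the first 4 places. For Mup4 the order was XX T (13.51 ± 0.24), XY- T (13.41 ± 0.22), XXSry T (13.32 ± 0.46), XY-Sry T (13.12 ± 0.24), XXSry E (12.14 ± 0.49), XX B (11.94 ± 0.15), XY-Sry E (11.46 ± 0.31), XY- B (11.41 ± 0.19), XXSry B (11.17 ± 0.39), XY-Sry B (11.07 ± 0.42), XY- E (10.999 ± 1.64) and XX E (10.71 ± 0.94), each as mean ± SD with n = 5. Of the 11 gaps between neighbours in that Mup4 order, 2 exceeded the larger SD of the pair, those from XY-Sry T to XXSry E and from XX B to XY-Sry E. Without XY- E replicate 5 the XY- E mean of Mup4 was 10.33 ± 0.75 (SD, n = 4), below XX E and last in the order, and without XY-Sry T replicate 5 that of XY-Sry T was 13.17 ± 0.26 (SD, n = 4), in the same place.

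Mup5 had the same 2 breaks, after the last testosterone group and after XX B, in both probes. ILMN_3158509 ran from 13.31 ± 0.39 in XXSry T, through 11.91 ± 0.40 in XXSry E and 11.80 ± 0.23 in XX B, to 10.40 ± 0.69 in XX E. ILMN_3079257 ran from 10.70 ± 0.27 in XX T, through 9.23 ± 0.41 in XXSry E and 9.07 ± 0.22 in XX B, to 7.84 ± 0.69 in XX E (SD, n = 5). Without XY- E replicate 5, XY- E was lowest for both, at 10.30 and 7.81. So in both Mup4 and Mup5, XXSry E and XX B stood next to each other between the testosterone groups and the rest.

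For Mup2 ILMN_3143404 the only gap beyond the SD was from XY-Sry T (14.02 ± 0.22) to XX B (13.63 ± 0.17), and the range of group means was 12.99 in XY- E to 14.23 in XY- T. Mup1 ran from 13.54 ± 0.36 in XY-Sry B to 14.37 ± 0.14 in XX T, Mup3 from 13.69 ± 0.52 in XY- E to 14.59 ± 0.13 in XY- T, and Mup2 ILMN_3065459 from 14.33 ± 0.21 in XX E to 14.82 ± 0.10 in XY- T. In these last 3 no neighbours differed by more than the larger SD. XY- E was lowest without its replicate 5 for these 4 probes too, at 12.62 for Mup2 ILMN_3143404, 13.43 for Mup1, 13.50 for Mup3 and 14.21 for Mup2 ILMN_3065459.

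The ratio between probes from array to array was described as well. Separate genes that move together also keep a steady ratio, and probes of the same transcript at different brightness need not. No statement on shared transcripts is therefore drawn from these ratios. Over the 60 liver arrays the SD of the log2 ratio was 0.28 between Mup4 ILMN_2592166 and Mup5 ILMN_3158509, which is smaller than the 0.34 between the 2 tested Mup5 probes. The 2 Mup2 probes differed by an SD of 0.47, while Mup2 ILMN_3065459 and Mup3 differed by 0.23. ILMN_3065459 and Mup3 were near the ceiling in 38 and 10 of the 60 arrays, a further limit on these 2 ratios. Mup4 and the Mup5 probe ILMN_3079257, neither ever near the ceiling, differed by 0.30. Within a treatment, the median Pearson r over the 21 probe pairs was 0.71 in blank (0.17 to 0.91), 0.85 in estradiol (0.65 to 0.96) and 0.25 in testosterone livers (-0.52 to 0.88), over 20 arrays each that share their depth and slide. The lowest value was that of the 2 Mup2 probes, and it rests on few arrays: r was 0.15 without the 2 farthest, and Spearman rho was -0.02 with all. After Benjamini-Hochberg adjustment over the pairs, the largest permutation p was 0.00264 in estradiol, 0.482 in blank and 0.813 in testosterone livers. Arrays were permuted over genotypes and slides, so differences between these enter r and p. In estradiol livers r ran from 0.53 to 0.93 over the pairs without the 2 farthest arrays.

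The genes whose profile over the 60 liver arrays was most like that of a member were chosen by Pearson r among the probes tested, with no p. For Mup4 they were 1300012D20Rik (RefSeq Ugt2b1, a glucuronosyltransferase, r = 0.91), Selenbp2 (a selenium-binding protein, 0.89) and Nudt7 (a peroxisomal coenzyme A hydrolase, 0.89). The Mup5 probe ILMN_3158509 had the same 3, at 0.91, 0.90 and 0.90, and ILMN_3079257 had 1300012D20Rik at 0.88, Selenbp2 at 0.87 and Slco1a1, an organic anion transporter, at 0.87. For Mup2 ILMN_3143404 they were 1300012D20Rik (0.84), Selenbp2 (0.83) and EG13909 (RefSeq Ces3b, a carboxylesterase, 0.81). Mup1 had Selenbp2 (0.83), 2810439F02Rik (RefSeq Ttc39c, 0.82) and EG13909 (0.82).

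Mup3 was most like Car3 (carbonic anhydrase 3, r = 0.85), 2810007J24Rik (RefSeq Sult2a8, a sulfotransferase, 0.79) and Nudt7 (0.78). Mup2 ILMN_3065459 was most like OTTMUSG00000007485, a predicted gene that the annotation puts on chromosome 4 (0.86), then Ela1 (RefSeq Cela1, an elastase, 0.68) and EG13909 (0.67). The arrays share treatment, depth and slide, so these values include the treatment effect.

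Growth hormone signalling genes and known liver regulators of sex-biased genes were taken as a pathway list: 23 of 24 listed genes were on the array and 19 were tested in liver. With testosterone 2 of the 19 rose and 8 fell (median -0.09), where 8.17% of all probes rose and 10.9% fell. Cux2, a repressor typical of female liver, fell by 3.33 (limma adjusted p = 1.36e-17), Esr1, the estrogen receptor, by 1.19, and Socs2, an inhibitor of growth hormone signalling, by 0.83. Among the others, Cish, Ppara, Igfals and Igf1 fell, by 0.90, 0.43, 0.38 and 0.29. Bcl6, a repressor typical of male liver, rose by 1.13 (limma adjusted p = 0.00379), and Cebpb, a transcription factor, by 0.48. With estradiol 2 of the 19 rose and 2 fell, where 3.54% of all probes rose and 3.25% fell: Stat5a by 0.38 and Cebpb by 0.37, and Ppara by -0.62 and Rxra by -0.24. Stat5b, the main growth hormone transducer of liver, was detected in 0 of 60 liver arrays and was not tested.

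Other genes of the lipocalin family were listed too. Of 13 listed, 12 were on the array and 6 were tested in liver, against the same shares of all probes. With testosterone 0 of 6 rose and 1 fell, Orm2, an acute phase protein (-1.01, limma adjusted p = 0.00488). With estradiol 1 of 6 rose, Lcn2, an iron-scavenging acute phase protein (2.51, limma adjusted p = 0.00137).

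Fat was measured in the same design and its table was normalised separately, so levels are not set against liver. The hormone that moved the Mup probes in fat was estradiol: 6 of 7 tested probes rose, where 10.4% of all 14636 probes tested did, and the median was 1.29 against -0.02 over all probes. Mup4 rose by 2.30 ± 0.26 (SE, limma adjusted p = 1.67e-09), 4.92-fold, and Mup5 ILMN_3158509 by 2.31 ± 0.27 (5.71e-09), 4.94-fold. The Mup2 probes ILMN_3143404 and ILMN_3065459 rose by 1.95 and 1.29, Mup5 ILMN_3079257 by 1.14 and Mup1 by 0.91. Mup5 ILMN_3079257 had a blank level close to background, and its difference was 0.45 (limma adjusted p = 2.94e-04) without background correction. The part of that low level in the size of the difference was not tested. Mup3 was the exception at -0.68 ± 0.50 (SE, limma adjusted p = 0.376).

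**Figure D4:**
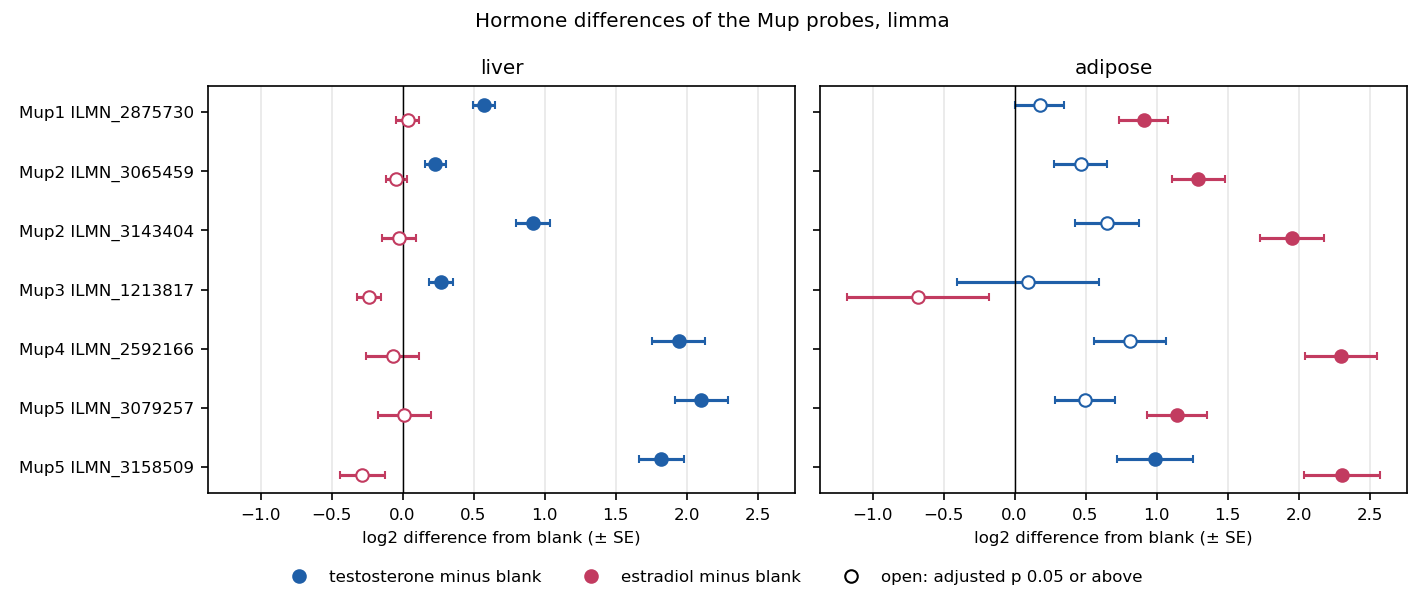
Testosterone minus blank and estradiol minus blank differences (log2, bars are SE) of the 7 tested Mup probes in liver and in fat, with filled symbols for limma adjusted p under 0.05. In liver all 7 testosterone differences are called and 0 of 7 estradiol differences, and in fat 6 of 7 estradiol differences and 1 of 7 testosterone differences. The tissues were fitted apart and their differences were not tested against each other.

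By array, Mup4 in fat ran from 6.27 to 9.60 (mean 7.54 ± 0.84 SD, n = 17) in blank, 7.09 to 10.90 (8.39 ± 0.87, n = 19) in testosterone and 8.11 to 10.69 (9.87 ± 0.64, n = 19) in estradiol mice. Mup5 ILMN_3158509 ran from 5.76 to 8.95 in blank, 6.999 to 11.26 in testosterone and 7.66 to 10.66 in estradiol fat. Estradiol and blank groups overlapped for both, yet 13 of 19 estradiol arrays for Mup4 and 17 of 19 for that Mup5 probe were above all 17 blank arrays. Mup2 ILMN_3143404 likewise had 17 of 19 above all blanks, at 11.14 ± 0.85 in blank and 13.11 ± 0.55 in estradiol fat. The highest blank value of Mup4, Mup5 ILMN_3158509 and Mup2 ILMN_3143404 was that of XX B replicate 1, the array whose Ddx3y went against its label. ILMN_3079257 of Mup5 was detected in 34 of 55 fat arrays, 4 of 17 blank and 18 of 19 estradiol arrays, the fewest of the 7 probes.

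By genotype, estradiol raised 3 of 7 probes in XX fat (3.85% of all probes rose), 3 in XY- (2.62%), 6 in XXSry (2.83%) and 5 in XY-Sry fat (1.96%). Mup4 was among them each time, at 1.67, 1.92, 2.78 and 2.82. All 7 estradiol differences were more positive with testes than with ovaries in fat as well, by 0.47 to 1.59, but 0 of 7 were called (1 of 7 with an unadjusted p under 0.05, 0.834% of all probes called). On the 2 slides that held both estradiol and blank arrays the Mup4 difference was 2.09 and 2.37.

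Testosterone in fat gave 1 of 7 calls, where 2.17% of all probes rose: Mup5 ILMN_3158509 by 0.99 ± 0.27 (SE, limma adjusted p = 0.0206). For Mup4 the difference was 0.81 (limma adjusted p = 0.0528). The Mup5 call did not hold with median centring (0.93, limma adjusted p = 0.0705) or with slide as a fixed block (0.69, limma adjusted p = 0.311). Testosterone fat was below estradiol fat for 6 of 7 probes, where 9.58% of all probes were lower, for Mup4 at -1.48. Gonad (7.36% of all probes called) and sex chromosomes (0.137%) gave 0 of 7 calls each, with 0 and 5 of 7 at an unadjusted p under 0.05. Macrophage markers rose with estradiol in fat too (3 of 3 tested, Adgre1 by 1.25, Cd68 by 1.33 and Csf1r by 1.13, summed signal 739 to 3077 in blank and 1139 to 6127 in estradiol fat), and their part in the Mup rise was not tested. The epithelial genes Krt7 and Krt19 rose with estradiol in fat as well, by 0.82 and 1.40, with a summed signal of 260 to 2590 in blank and 236 to 6608 in estradiol fat. Of 5 adipocyte markers 0 rose and 2 fell, Plin1 by 0.40 and Lep by 0.48. Of the vessel and stroma markers Lyve1 rose by 1.15, Col1a1 by 0.78, and Pecam1 fell by 0.27. None of the listed skeletal muscle (3 tested), mammary epithelium (2 tested) or lymphocyte genes (3 tested) was called with estradiol. Their medians still differed: the summed skeletal muscle signal was 24852 in blank (2870 to 77124) and 7690 in estradiol fat (492.8 to 69860), that of mammary epithelium 1344 (663 to 7371) and 3637 (637 to 9362), and that of lymphocytes 1548 (394 to 12529) and 2393 (464 to 7114). The part of these lists in the Mup rise was not tested either.

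Of the growth hormone list 17 genes were tested in fat. With estradiol 5 of the 17 were called, where 20.5% of all probes were: 2 rose (Socs2 by 1.48, Stat5a by 0.49) and 3 fell (Esr1 by 0.82, Cish by 0.72, Igf1 by 0.34), with a median of 0.01. Of 8 lipocalin genes tested in fat, Apod, a lipid carrier, rose by 0.74, Rbp4, the retinol carrier, fell by 1.90 and Orm1 fell by 0.81.

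Mup3 in fat followed hepatocyte markers, and over all treatments the other Mup probes had lower correlations. Over the 55 fat arrays Mup3 correlated with the mean log2 level of the 6 hepatocyte markers at Pearson r = 0.91 and Spearman rho = 0.85 (permutation p = 1e-05 each, the smallest that 100000 permutations can give, 7e-05 after Benjamini-Hochberg adjustment over the 7 probes). It held at r = 0.87 without the 2 arrays farthest from the median, and at 0.93 in blank, 0.94 in testosterone and 0.86 in estradiol fat. For the other 6 probes r was between -0.05 for Mup1 and 0.32 for Mup5 ILMN_3079257 (adjusted permutation p of at least 0.059). For Mup4 it was 0.19. Treatment moved these probes, so the values within a treatment are given too. In testosterone fat r was 0.76 for Mup5 ILMN_3158509, 0.54 for Mup4 and for Mup2 ILMN_3143404, 0.48 for Mup5 ILMN_3079257, 0.34 for Mup2 ILMN_3065459 and 0.20 for Mup1. Without the 2 farthest of these 19 arrays the first was 0.43 and Mup4 0.04. In blank fat the 6 ran from -0.14 for Mup1 to 0.45 for Mup5 ILMN_3079257, with Mup4 at 0.36, and in estradiol fat from -0.20 for Mup1 to 0.50 for Mup5 ILMN_3079257, with Mup4 at 0.29.

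**Figure D5:**
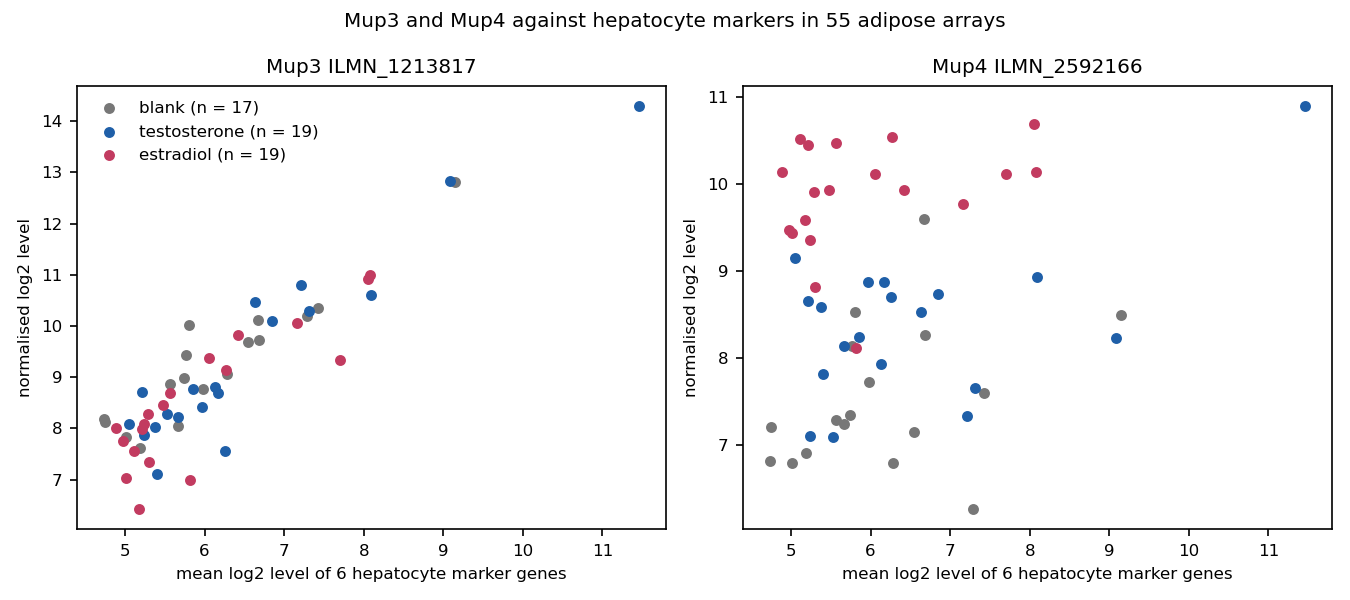
Normalised log2 level of Mup3 and of Mup4 in each of the 55 fat arrays against the mean log2 level of the 6 hepatocyte marker genes, coloured by treatment. Mup3 rises along the axis (r = 0.91) in every treatment, Mup4 less so (r = 0.19 over all arrays, 0.36, 0.54 and 0.29 within blank, testosterone and estradiol), and the array farthest to the right is XY-Sry T replicate 1.

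Mup3 was highest in 3 fat arrays, XY-Sry T replicate 1 (14.30), XX T replicate 4 (12.83) and XXSry B replicate 1 (12.81), while the other 52 ran from 6.43 to 10.997 with a median of 8.70. In XY-Sry T replicate 1 the albumin gene Alb was 10.87, Apoa1 14.60 and Ttr 14.38, whereas the median of Alb over those 52 arrays was 4.70. Fgb and Tat, further hepatocyte genes, were detected in 1 of 55 fat arrays and Alb in 5. Hepatocyte signal summed over the 6 genes ran from 865 to 19768 in blank, 742 to 98485 in testosterone and 817 to 17320 in estradiol fat. Of the 4 hepatocyte genes tested in fat 0 were called with estradiol, where 20.5% of all probes were. The part of hepatocyte signal in the Mup4 and Mup5 rise with estradiol in fat was not tested.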

How the data were processed

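Expression was measured on one-colour Illumina BeadChips in 60 liver and 55 inguinal fat arrays. The authors deposited, per the file headers, a probe table for each tissue with mean bead intensity, a detection p-value and a bead standard error per array, and the p-value columns give the chance that a probe is at the level of negative controls. The submitters' processing notes name lumi, but the intensity values in the deposited tables carry no transformation stated in the sources used here. Groups came from the titles and source names, and slides were inferred from the number that opens each title.

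With limma 3.58.1 in R 4.3.3, intensities were background-corrected (normexp from detection p-values, offset 16), quantile normalised within a tissue and put on the log2 scale. Probes with a detection p under 0.01 in at least 5 liver or 3 fat arrays were tested. A model of group means was fitted across all tested probes, and p-values were Benjamini-Hochberg adjusted over all of them within each comparison. In simulated liver data the fit recovered 74 of 100 probes changed by 0.5 and 99 of 100 changed by 1 on the log2 scale. In simulated fat data it recovered 48 and 87 of 100. False calls among the unchanged probes numbered 12 in liver and 5 in fat. The simulation covered only testosterone against blank over all genotypes, with independent noise and no slide effect or ceiling. It does not cover comparisons within a genotype or interactions. Bead standard errors, medians near 4% to 6% of the signal, were used to describe the precision of single arrays, and the number of arrays limits that of comparisons.

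The members, lists and tests were chosen with earlier results of these data known, and the alternatives within a genotype and the values without XX E replicate 1 or XXSry E replicate 5 were chosen after seeing the data. Genes most like a member were named by the 3 highest Pearson correlations per probe. The result of 1 listed gene is not reported here.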

Additional observations from a re-analysis of the deposited data

Results flagged for a closer look

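Within groups of 4 or 5 arrays, 1 array was checked for standing far from the others by Dixon's test, which flags about 1 in 20 groups by chance. Of 161 groups, 15 had such an array, from 10 arrays.

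In liver, XX E replicate 1 stood below the rest of its group for Mup1 (13.11, others 13.65 to 13.76), Mup3 (12.72, others 13.77 to 14.08) and Mup4 (9.11, others 10.83 to 11.53). XY-Sry B replicate 1 was low for Mup1 (12.92, others 13.62 to 13.84) and Mup4 (10.35, others 11.06 to 11.35). XY- E replicate 5, whose profile went against its label, was high for Mup1 (14.33, others 13.32 to 13.59). The Mup2 probe ILMN_3065459, which lies near the ceiling, was low in XX B replicate 5 (14.38, others 14.68 to 14.79) and in XXSry T replicate 4 (14.21, others 14.79 to 14.86).

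In fat, XY- E replicate 3 was low for Mup1 (13.16, others 14.07 to 14.26), Mup2 ILMN_3143404 (11.06, others 12.94 to 13.31) and Mup5 ILMN_3158509 (7.66, others 9.31 to 9.80). XXSry E replicate 1 was low for Mup1 (13.96, others 14.36 to 14.38), and XXSry T replicate 4 for Mup2 ILMN_3065459 (12.04, others 13.40 to 13.52). Mup3 was low in XXSry T replicate 1 (8.69, others 10.10 to 10.61) and high in XY-Sry T replicate 1 (14.30, others 7.11 to 8.28), the fat array with the highest hepatocyte signal.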

How the results depend on the processing

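In liver, the 7 testosterone calls against blank and against estradiol held when any 1 of 60 arrays was left out (7 to 7), and gonad, sex chromosome and their other interactions with hormone stayed at 0 to 0. Estradiol against blank gave 1 call with slide as a fixed or random block and 2 without both arrays that go against their labels, and 0 to 2 over single arrays left out, the 2 without XY- E replicate 5. The estradiol by gonad term gave 3 calls with slide as a fixed block, 3 with it as a random block, 4 with array weights and 5 without both arrays. Over all probes these settings gave 36, 46, 37 and 36 calls, against 9 in the main fit. Over single arrays left out the term gave 0 to 5 Mup calls, with 5 without XY- E replicate 5 and 1 without XY-Sry E replicate 1, XX E replicate 2 or XX E replicate 3. In fat the 6 estradiol calls held (6 to 6), while testosterone gave 0 with median centring, 0 with slide as a fixed block, 0 with median centring of uncorrected signal, and 0 to 4 over single arrays, with 13 arrays moving it (leaving out XX B replicate 3 gave 0, XX B replicate 1 gave 4). The causes were not tested. Over the single probes and other settings, 609 of 630 liver and 137 of 140 fat values kept their call, and none reversed. Median centring moved the median of all liver probes from -0.02 to -0.18 for estradiol against blank and from 0.01 to 0.13 for estradiol by gonad. The share of higher among all calls went from 52.1% to 8.55% for estradiol and from 42.8% to 16.5% for testosterone against blank. No paired analysis was possible because the replicate numbers were given in accession order and tie no arrays together. Each liver slide lacks at least 1 treatment, signals of Mup2 and Mup3 approach the ceiling, and probe specificity was not tested.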
